A study of Mus musculus with 20 samples.

Results

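Transcripts of red blood cells were measured in dorsal root ganglia (DRG) of mouse embryos at stage E18.5, shortly before birth. These ganglia lie beside the spinal cord, hold sensory neurons and their glia, and were taken whole. The set comprised 8 genes chosen by symbol: the adult alpha globins Hba-a1 and Hba-a2, the adult beta globins Hbb-b1 and Hbb-b2, the embryonic globins Hba-x and Hbb-y, and 2 other red cell genes, Alas2 and Slc4a1. All 8 symbols were found among the 37620 genes of the expression table, and 29049 of these genes were detected in some library. The embryos were of the C57Bl6 strain, carried no transgene named in the labels and received no treatment named there. Each of 10 donors (male M1, M3, M5, M7 and M8; female F3, F7, F8, F9 and F10) gave 1 library from spinal levels L4-5, called lumbar, and 1 from L6-S1, called sacral, which made 20 libraries in 4 groups of 5. The study asked which transcripts distinguish the sacral ganglia, which hold neurons projecting to the pelvic organs, and whether the sexes differ before birth.

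Haemoglobin is a tetramer of alpha-like and beta-like globin chains that carries oxygen on haem. In the mouse, primitive red cells of the yolk sac make embryonic chains, among them the zeta chain of Hba-x and the epsilon-like chain of Hbb-y, whereas definitive red cells of the fetal liver and later the bone marrow make adult chains. Alas2 encodes the erythroid form of 5-aminolevulinate synthase, which catalyzes the first step of haem synthesis, and Slc4a1 encodes band 3, the anion exchanger of the red cell membrane. Mature mammalian red cells have no nucleus, but young ones still hold globin RNA. No step to remove blood from the ganglia is described in the sources used here. In whole ganglia, fewer cells of a type and less RNA per cell cannot be told apart.

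Levels are given as RPKM, reads scaled to exon length and by a factor for each library, and differences as log2 differences. This allows genes to be compared per length. The median log2 RPKM of the detected genes was 0.930 in every library, so a value is relative to the median gene of its library. Whole reads could be worked back from the deposited values, and libraries held between 19606265 (sacral library of F7) and 39678967 reads (lumbar library of F8). The mitochondrial ribosomal RNA (rRNA) share of the reads ran from 17.8% (sacral F3) to 61.1% (lumbar M5). All 9 sensory neuron markers were detected in the 20 libraries, as in ganglia, and no library was set aside. The label numbers of the libraries run in 1 block for the male and in another for the female embryos, so the order in which libraries were handled and the sex of the embryo cannot be told apart. Where nothing else is said, p-values come from limma fitted to all 14529 genes whose mean of log2 RPKM, with blanks filled, corresponded to at least 1 RPKM in at least 1 group, with donor as a block and Benjamini-Hochberg adjustment, and the threshold for a call was an adjusted p of 0.05. The filter left 6 of the 8 genes. Hba-x and Hbb-y did not pass, although the arithmetic mean of Hba-x was 1.28 RPKM in lumbar and 1.26 RPKM in sacral females. Slc4a1 passed through the sacral female group alone.

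The sequences show what the counts of adult globins rest on, since only reads that map to a single place were kept. The coding sequences of Hba-a1 and Hba-a2 are each 429 bases long and differ at 1 base, C381T, counted from the first base of the start codon with the base of Hba-a1 first. Those of Hbb-b1 and Hbb-b2 are 444 bases long and also differ at 1 base, C417T. Both changes leave the encoded protein the same. The embryonic genes are well separated. Hbb-y is 74.3% identical to Hbb-b1 over the coding bases, with no identical run longer than 22 bases, and Hba-x is 62.0% identical to Hba-a1, with no run longer than 18. A stretch of 90 coding bases from the last exon is printed for the 3 beta-like genes because it holds the single base that parts the adult pair. Capitals mark the 22 positions at which the 3 genes are not all alike, and the sequences are written 5′ to 3′ in the direction of transcription (mm9).

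Hbb-b1: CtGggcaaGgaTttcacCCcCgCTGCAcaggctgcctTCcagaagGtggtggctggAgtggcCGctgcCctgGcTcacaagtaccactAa

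Hbb-b2: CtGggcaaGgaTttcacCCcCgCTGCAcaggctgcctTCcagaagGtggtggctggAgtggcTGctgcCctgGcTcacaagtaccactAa

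Hbb-y: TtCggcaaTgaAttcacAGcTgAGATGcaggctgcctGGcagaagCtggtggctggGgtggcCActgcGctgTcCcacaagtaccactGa

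These stretches lie on the minus strand at chr7:110975179-110975268, chr7:110961170-110961259 and chr7:111000388-111000477 and cover coding bases 355 to 444. The adult pair differs at 1 of the 90 bases, and Hbb-y differs from Hbb-b1 at 21. The matching stretch of the alpha-like genes, coding bases 337 to 426, has 38 positions in capitals.

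Hba-a1: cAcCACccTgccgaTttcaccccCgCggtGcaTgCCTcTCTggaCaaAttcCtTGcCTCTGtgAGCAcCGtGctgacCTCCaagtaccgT

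Hba-a2: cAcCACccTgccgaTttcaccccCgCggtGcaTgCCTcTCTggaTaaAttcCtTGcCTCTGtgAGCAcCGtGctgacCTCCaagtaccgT

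Hba-x: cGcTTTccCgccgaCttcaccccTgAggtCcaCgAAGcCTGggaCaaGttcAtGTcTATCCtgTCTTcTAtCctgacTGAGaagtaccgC

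These lie on the plus strand at chr11:32184299-32184388, chr11:32197116-32197205 and chr11:32177916-32178005, and here too the adult pair differs at 1 base and Hba-x at 37 from Hba-a1. In the mm9 reference gene models, Hbb-b2, Hbb-b1 and Hbb-y lie in this order on chr7 (chr7:110961038-110962510, chr7:110975048-110976610 and chr7:111000259-111001754), and Hba-x, Hba-a1 and Hba-a2 on chr11 (chr11:32176400-32178116, chr11:32183511-32184465 and chr11:32196489-32197301). Slc4a1 is also on chr11 (chr11:102210138-102227517, minus strand) and Alas2 on chrX (chrX:146981918-147005181, plus strand).

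A read of 50 bases within the coding part could therefore seldom be placed. Of all windows of 50 bases along the longest transcript, 52.3% of Hbb-b1, 58.3% of Hbb-b2, 67.5% of Hba-a1 and 86.9% of Hba-a2 also occurred in the transcript of the other copy. Of the windows inside the coding sequence, 92.9% were shared in the beta pair and 87.1% in the alpha pair. Most windows that could tell the beta copies apart reached into their untranslated ends (320 of 348 for Hbb-b1), whereas only 17 of the 66 of Hba-a2 did. With windows of 100 bases the shared part was between 48.7% (Hbb-b1) and 74.5% (Hba-a2). No window of Hba-x, Hbb-y or Slc4a1 occurred in a protein-coding transcript of another gene. Noncoding genes and the rest of the genome were not searched. For Alas2, 13.2% of the windows overlapped the transcript of Apex2, a DNA repair gene on the opposite strand, and strand use in counting is not stated. The read length is not given in the sources used here. RPKM divides by the full exon length, so the adult globin levels below leave out every read that fits both copies, and the split of reads within a pair is uncertain.

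**Figure D1:**
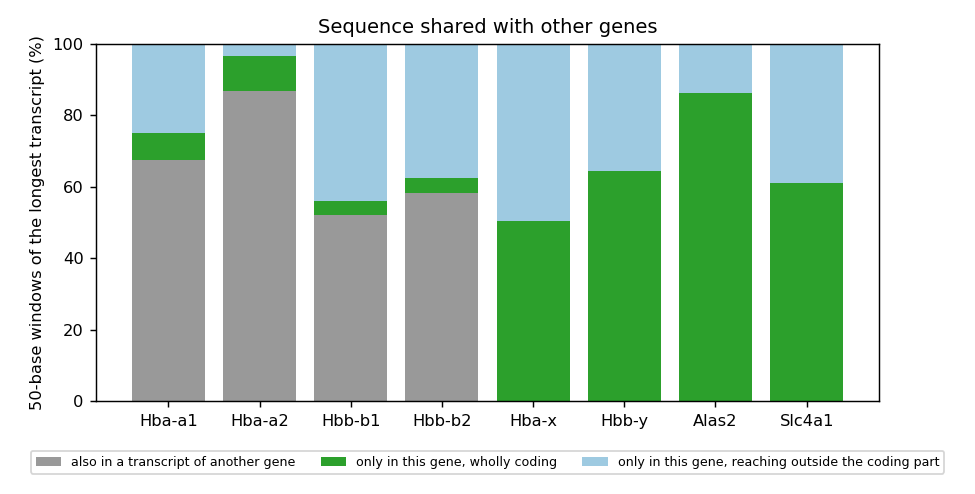
Windows of 50 bases along the longest transcript of each gene, as a percentage of all its windows (y axis), divided into those that also occur in a protein-coding transcript of another gene, those found only in that gene and wholly coding, and those found only in that gene and reaching outside the coding part. Only protein-coding transcripts were searched. The 4 adult globins share between 52.3% and 86.9% of their windows with the other copy, and the other 4 genes share none.

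Hbb-b1 had the highest mean RPKM of the 8 genes, an order that depends on the divisor since reads shared by the copies are not counted, and it was not called for a difference between the levels. In lumbar libraries it stood at 50.3, 41.9, 44.3, 39.1 and 31.4 RPKM in the males (donors in the order M1, M3, M5, M7 and M8, here and below) and at 58.9, 61.1, 135, 47.4 and 39.8 RPKM in the females (order F3, F7, F8, F9 and F10). In sacral libraries the males gave 46.1, 38.3, 32.4, 35.4 and 47.2 RPKM and the females 41.4, 54.2, 113, 78.4 and 42.7 RPKM. Donor F8 was the highest in either level, and the values of the sexes overlapped. The sacral minus lumbar difference was -0.04 ± 0.16 (log2, SE, adjusted p = 0.904 by limma), with 3 of 10 donors higher in sacral DRG. Hbb-b2, the other adult beta chain, gave 47.2, 34.9, 33.7, 41.2 and 27.7 RPKM in lumbar males and 51.4, 48.2, 110.4, 40.8 and 40.0 RPKM in lumbar females. In sacral libraries it gave 38.6, 35.6, 27.0, 36.9 and 42.6 RPKM in males and 34.1, 45.9, 94.2, 66.0 and 34.8 RPKM in females. Its difference between the levels was -0.05 ± 0.15 (adjusted p = 0.858). The direction of both beta genes turned when the libraries were rescaled without mitochondrial rRNA (0.05 and 0.03), so no direction is given for them.

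The adult alpha globins had higher means in sacral than in lumbar DRG, by 0.31 ± 0.16 for each, and neither passed the test. Hba-a1 stood at 19.0, 16.4, 14.2, 14.2 and 15.3 RPKM in lumbar males and at 24.1, 15.7, 16.5, 19.7 and 25.3 RPKM in sacral males. In females it gave 24.4, 17.7, 50.2, 17.8 and 15.4 RPKM in lumbar and 17.2, 26.7, 51.0, 35.3 and 18.8 RPKM in sacral libraries. The sacral value was the higher one in 8 of 10 donors, with M3 and F3 the exceptions (adjusted p = 0.246 by limma). Hba-a2 gave 15.6, 11.3, 10.6, 12.3 and 13.2 RPKM in lumbar males and 19.5, 10.6, 14.5, 17.4 and 17.1 RPKM in sacral males. In females it gave 20.2, 14.5, 42.2, 15.4 and 10.9 RPKM in lumbar and 15.1, 22.6, 35.9, 30.2 and 16.6 RPKM in sacral libraries, and it was higher in sacral DRG of 7 of 10 donors (adjusted p = 0.237). With array quality weights, which give less weight to libraries that vary more, Hba-a2 passed (0.44, adjusted p = 0.0491). That setting called 2998 of all 14529 genes for level. None of the 6 genes in the fit was called for spinal level by limma, against 6.73% of all genes tested (392 higher and 586 lower in sacral DRG), and 2 of them (Alas2 and Slc4a1) had an unadjusted p under 0.05, as did 3501 of all 14529 genes. Rescaled without mitochondrial rRNA, the split over all genes was 603 higher of 830 called. The median difference of the 6 genes, among them Slc4a1, which entered through sacral females alone, was 0.31, beside -0.05 over all genes tested.

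**Figure D2:**
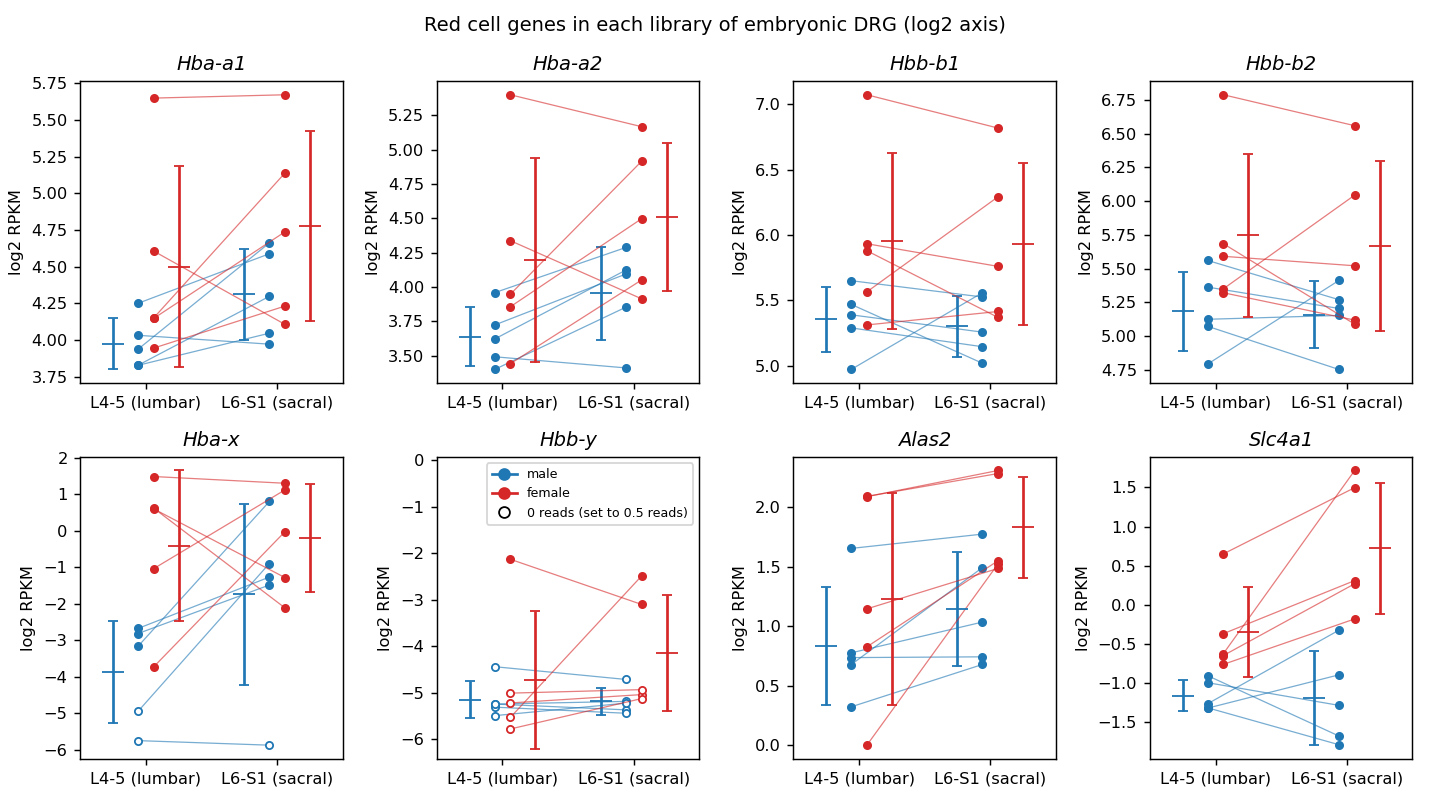
Level of each gene in each library, as log2 RPKM (y axis), in lumbar (L4-5) and sacral (L6-S1) ganglia, with lines joining the 2 libraries of a donor, open points for libraries with 0 reads, and bars for the mean ± SD of the 5 libraries of a sex. Lines of Alas2 rise in all 10 donors, those of Hbb-b1 rise in 3, and the sacral females lie above the sacral males for Slc4a1.

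Within a library, the ratio of alpha to beta globin does not depend on how the library was scaled, and it was compared between the levels after the values had been seen. The log2 ratio of Hba-a1 to Hbb-b1 was -1.40, -1.36, -1.64, -1.46 and -1.03 in lumbar males and -0.94, -1.29, -0.97, -0.85 and -0.90 in sacral males. In females it was -1.27, -1.79, -1.42, -1.41 and -1.37 in lumbar and -1.26, -1.02, -1.15, -1.15 and -1.18 in sacral libraries. The ratio was higher in the sacral library of all 10 donors, by 0.01 (F3) to 0.76 (F7), with a mean of 0.34 ± 0.27 (SD, n = 10). The same held in 7 of 10 donors for Hba-a2 against Hbb-b2 (0.37 ± 0.40) and in 8 of 10 for the summed alpha against the summed beta genes (0.36 ± 0.30). Leaving out M5 and F7, whose lumbar libraries held the 2 highest mitochondrial rRNA shares among lumbar libraries, the summed ratio differed by 0.26, and no test was run on it. Which of the chain types is the more abundant cannot be read from these values. As RPKM, the summed ratio had a median of -1.28 over the 20 libraries. Per 50-base window found in no protein-coding transcript of another gene its mean was 0.10, and per 100-base window -0.53.

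**Figure D3:**
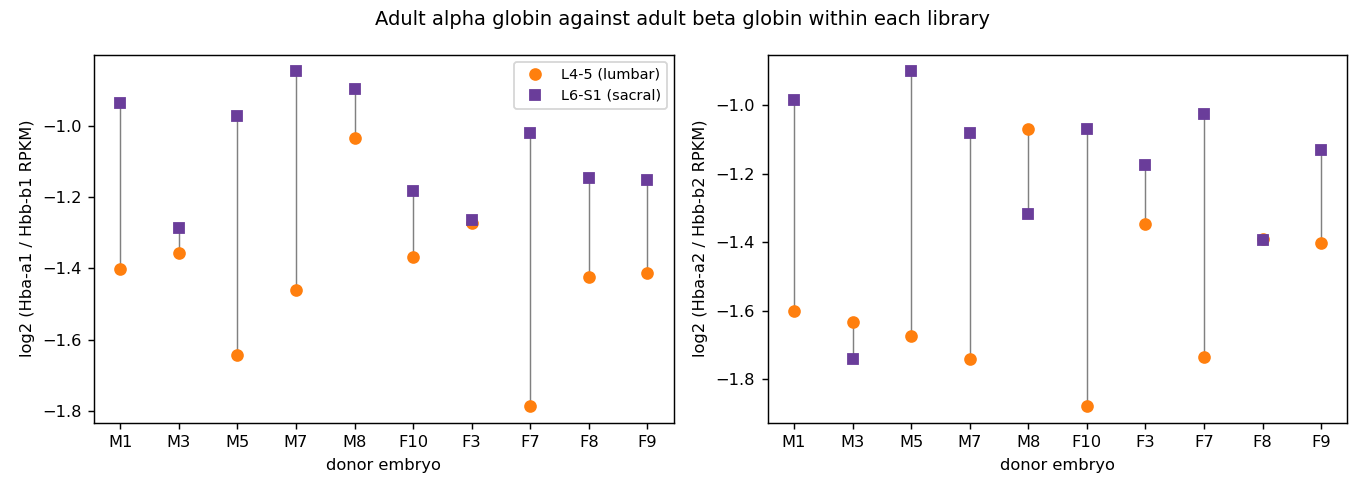
The log2 ratio of Hba-a1 to Hbb-b1 RPKM (left) and of Hba-a2 to Hbb-b2 RPKM (right) for each donor embryo, in its lumbar (circle) and sacral (square) library. The square lies above the circle in 10 of 10 donors on the left and in 7 of 10 on the right.

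Embryonic globin transcripts were rare. Hba-x had 454 reads in all libraries together, against 18127 of Hba-a1 and Hba-a2, and Hbb-y had 11, against 46944 of Hbb-b1 and Hbb-b2. Hbb-bh1, a further embryonic beta-like gene, and Hbb-bh2 had 0 reads in all 20 libraries. In lumbar libraries Hba-x had 0, 4, 0, 3 and 5 reads in the males and 47, 35, 109, 16 and 2 in the females. In sacral libraries it had 0, 11, 10, 45 and 11 reads in the males and 15, 5, 61, 52 and 23 in the females. Donor M1 had no read of Hba-x at either level, and M5 had none in its lumbar library. In the lumbar and sacral libraries of M1 and the lumbar library of M5, 0 reads allow at most 0.322%, 0.235% and 0.782% of the alpha-like globin RPKM (3 reads, counting error only). The highest share was 4.55% (lumbar F7). Hbb-y was read 5 times in lumbar F3, 3 times in sacral F3 and 3 times in sacral F9, and never in a male.

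The share of Hba-x in alpha-like globin RPKM was 1.40 ± 1.62% in lumbar and 1.89 ± 1.38% in sacral libraries (SD, n = 10 each), a paired difference of 0.49 ± 2.30 percentage points with 6 of 10 donors higher in sacral DRG. The difference was smaller than the spread between donors. In sacral relative to lumbar libraries the level of Hba-x differed by 1.17 ± 2.39 (log2, SD, n = 10), with p = 0.150 in an exact two-sided sign-flip permutation test, for which the smallest possible p is 0.00195. The lumbar shares were 0.00 to 0.55% in the males and 0.29 to 4.55% in the females, so these groups overlapped. The share of Hbb-y in beta-like RPKM reached 0.207% in lumbar F3 and was at 0 in 17 libraries, which allows up to between 0.0447% (lumbar F8) and 0.384% (sacral M5). Its mean over the 20 libraries was 0.0242 ± 0.0608%. No test between the levels is given for Hbb-y, since 8 of 10 donors had no read of it at either level. Because reads shared by the adult copies are not counted, the shares depend on the divisor. The mean share of Hba-x over the 20 libraries was 1.65% of RPKM. Per 50-base window found in no protein-coding transcript of another gene it was 0.314%, and per 100-base window 0.521%. The paired difference rested on single donors: it was 0.0959 percentage points without M7 and 1.0 without F7.

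**Figure D4:**
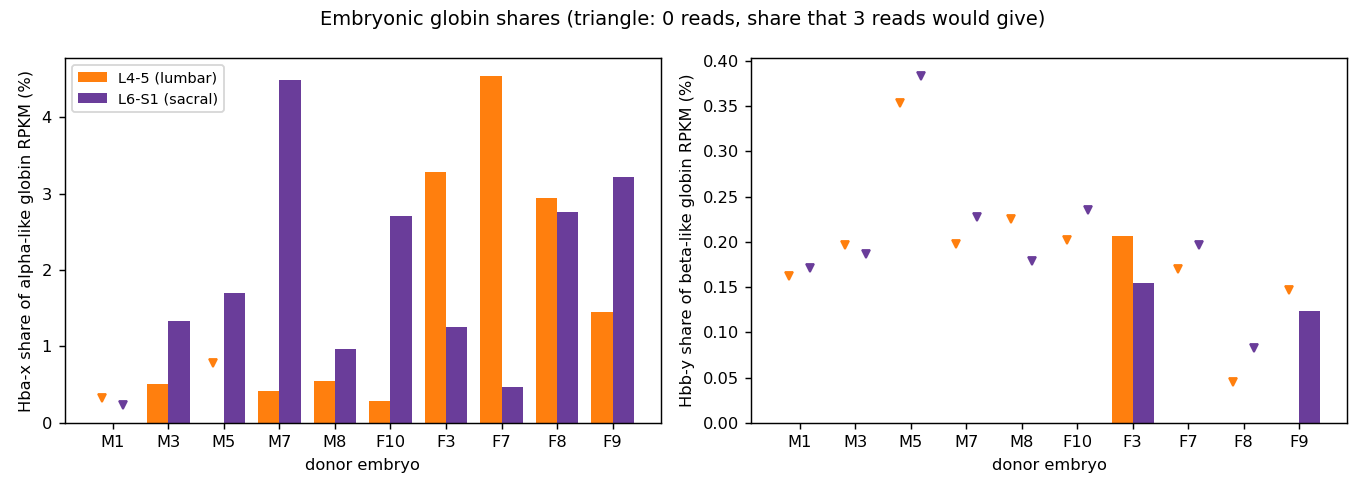
Share of Hba-x in alpha-like (left) and of Hbb-y in beta-like (right) globin RPKM, in percent, for each donor in its lumbar and sacral library. Triangles mark libraries with 0 reads, at the share that 3 reads would give. Hba-x reached 4.55% in lumbar F7 and Hbb-y 0.207% in lumbar F3.

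Alas2 was the gene with the most even direction between the levels. It stood at 1.25, 1.67, 3.15, 1.60 and 1.71 RPKM in lumbar males and 1.60, 1.67, 3.42, 2.82 and 2.05 RPKM in sacral males. In females it gave 2.21, 4.26, 4.26, 1.0 and 1.78 RPKM in lumbar and 2.80, 4.87, 4.96, 2.88 and 2.93 RPKM in sacral libraries. The sacral library was the higher one in all 10 donors, by 0.01 (M3) to 1.52 (F9) on the log2 scale, a direction that 0.895% of all genes tested shared. The difference was 0.46 ± 0.19 (SE) and did not pass the test (adjusted p = 0.147 by limma). It passed with array quality weights (0.55, adjusted p = 0.0203), a setting that called 2998 of all 14529 genes for level. Over 19 alternatives the difference lay between 0.31, on the compressed log2(RPKM + 1) scale, and 0.55. As donors were left out in turn, it was 0.34 to 0.51. The 3 lumbar libraries with the highest mitochondrial rRNA share of reads (61.1% in M5, 48.8% in F7 and 43.2% in F8) were those with the highest Alas2 in lumbar DRG. With that share as a covariate the difference between the levels was 0.41 (adjusted p = 0.126). The summed RPKM of the sensory neuron markers, 972 to 2301 in lumbar and 430.2 to 1478 in sacral libraries, had a lower range in sacral DRG, and its part in the difference was not tested. Per length Alas2 (mean 2.65 RPKM) was close to Alas1 (2.83 RPKM), the form of the enzyme found in all tissues, whose level difference was not called (-0.07 ± 0.09, adjusted p = 0.678).

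Slc4a1 was higher in female than in male sacral DRG, and it had passed the filter on low values through the sacral female group alone. In sacral libraries it stood at 0.289, 0.312, 0.536, 0.409 and 0.797 RPKM in the males and 1.20, 3.29, 2.82, 1.24 and 0.881 RPKM in the females. Every sacral female lay above every sacral male, which held for 1.45% of all genes tested. The difference was 1.92 ± 0.42 (log2, SE, adjusted p = 0.0302 by limma), and with no filter on low values the adjusted p was 0.0266. The other 5 genes in the fit were not called, and 1.01% of all genes tested were. Since a gene high in 1 group only could enter the fit through that group, the call of Slc4a1 is not counted as support for the set. In lumbar libraries it gave 0.400, 0.533, 0.399, 0.50 and 0.415 RPKM in the males and 0.637, 0.648, 1.57, 0.773 and 0.589 RPKM in the females. Here too all females lay above all males, as did 1.04% of genes tested, but the difference of 0.81 ± 0.42 was not called (adjusted p = 0.635). The female minus male difference was larger in sacral than in lumbar DRG by 1.11 ± 0.48, which was not called either (adjusted p = 0.995). The sacral call was lost without M1, M3, M7, F7, F8 or F9 (adjusted p 0.0696 to 0.107), without M5 and F7 together (0.0553) and when libraries were rescaled without mitochondrial rRNA (0.0716), while the difference stayed between 1.67 and 2.15 as donors were left out in turn. On the log2(RPKM + 1) scale it was 0.91 (adjusted p = 0.0317). Slc4a1 had 44 to 110 reads in sacral males and 107 to 371 in sacral females. Between the levels it differed by 0.52 ± 0.24 (adjusted p = 0.193), with 7 of 10 donors higher in sacral DRG. That mean joined -0.03 ± 0.70 in males and 1.07 ± 0.72 in females (SD, n = 5 each).

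The other genes in the fit had higher means in females than in males and did not pass the test. The adult globins among them moved together over libraries, so their directions are not separate observations. Hba-x and Hbb-y were outside the fit. With blanks filled, Hba-x was higher in females by 3.46 in lumbar DRG (209 reads against 12) and by 1.54 in sacral DRG. Fitted with no filter on low values, its adjusted p was 0.477 and 0.673 by limma. In lumbar DRG all 6 genes in the fit had a higher mean in females, by 0.40 (Alas2) to 0.81 (Slc4a1). The median of these 6 genes, among them Slc4a1, which entered through sacral females alone, was 0.56 against 0.02 over all genes tested. None was called by limma (adjusted p 0.57 to 0.816), against 0.33% of all genes, and 2 (Hbb-b1 and Hbb-b2) had an unadjusted p under 0.05, as did 1203 of all 14529 genes. In sacral DRG the differences were 0.46 (Hba-a1) to 0.69 (Alas2) beside Slc4a1, with adjusted p of 0.281 to 0.428, and 3 of the 6, Slc4a1 included, had an unadjusted p under 0.05, as did 2255 of all 14529 genes. Without F8, the donor with the highest adult globin values, the lumbar differences of the 6 genes were 0.18 (Alas2) to 0.56 (Slc4a1), with Hba-a1 at 0.24, Hba-a2 at 0.26, Hbb-b1 at 0.32 and Hbb-b2 at 0.30. In sacral DRG Hba-a1 was then at 0.24, Hbb-b2 at 0.28, Hba-a2 at 0.39, Hbb-b1 at 0.41 and Alas2 at 0.57. No gene of the table was called for a difference between the levels that depended on sex (0% of 14529, with 470 at an unadjusted p under 0.05), and of the 6 genes Slc4a1 alone had an unadjusted p under 0.05.

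**Figure D5:**
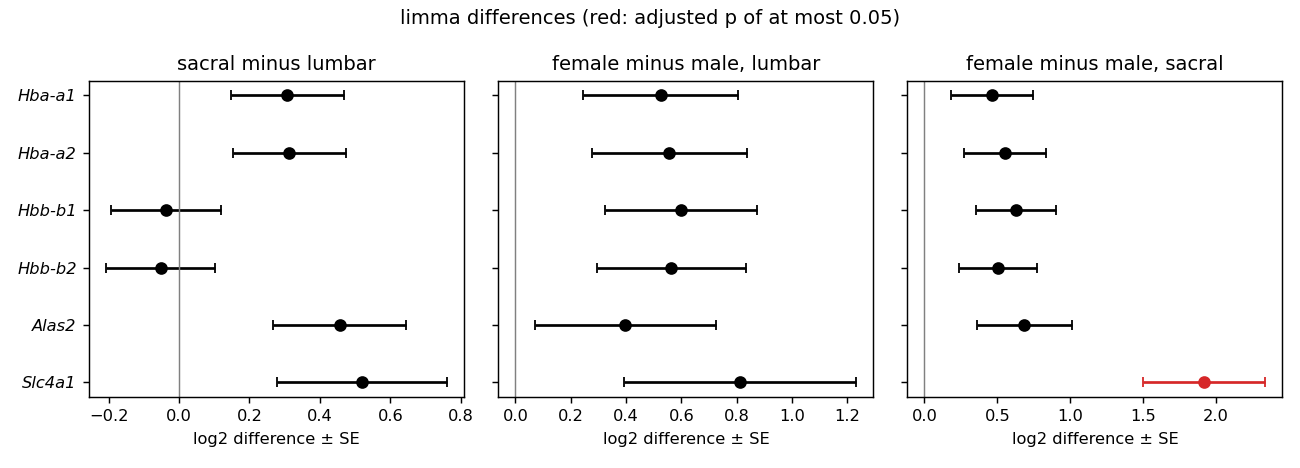
Log2 differences (x axis) with their SE from limma for the 6 genes in the fit: sacral minus lumbar (left), female minus male in lumbar DRG (middle) and female minus male in sacral DRG (right). Red marks an adjusted p of at most 0.05, which Slc4a1 alone reached, at 1.92 in sacral DRG. The scales of the 3 panels differ.

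The 4 adult and 2 embryonic globins summed to 87.8 RPKM (lumbar M8) to 340.2 RPKM (lumbar F8), with a mean of 140.2 ± 73.3 in lumbar and 144.4 ± 63.5 in sacral libraries (SD, n = 10). The paired difference was 0.06 ± 0.38 (log2, SD), and 5 of 10 donors were higher in sacral DRG. This sum was 0.0102% (lumbar M5) to 0.0586% (lumbar F8) of all RPKM in a library. With mitochondrial rRNA left out of the divisor, the share was 0.0319% (lumbar M5) to 0.126% (lumbar F8). Donor F8 stood highest at both levels, with 340.2 RPKM in lumbar and 296.4 RPKM in sacral DRG, and the sacral library of F9 followed with 212.2 RPKM. Over the 10 donors, Hbb-b1 in lumbar and in sacral DRG had r = 0.74 (permutation p = 0.0276, adjusted over 3 relations p = 0.0827) and Spearman's rho = 0.49 (permutation p = 0.155, adjusted p = 0.348). Without M8 and F8 the relation no longer held (r = 0.38, permutation p = 0.363). Hbb-b1 and the mitochondrial rRNA share had r = 0.43 in lumbar libraries (permutation p = 0.225, adjusted p = 0.337, rho = 0.42 with permutation p = 0.232 and adjusted p = 0.348). Without M5 and F7 this r was 0.73 (permutation p = 0.056). In sacral libraries it was 0.27 (permutation p = 0.46, adjusted p = 0.46, rho = 0.21 with permutation p = 0.56 and adjusted p = 0.56), and 0.09 without M3 and F3.

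The patterns over the libraries of a level were compared with that of Hbb-b1 by Pearson's r, taken over the 10 lumbar and over the 10 sacral libraries, with the smaller of the 2 values given and no test. Libraries share their scaling and their RNA quality, which also enters this measure. Hbb-b2 (0.97), Hba-a1 (0.94) and Hba-a2 (0.90) followed Hbb-b1 closely, Slc4a1 (0.68) and Alas2 (0.47) less so, and Hba-x (0.35) and Hbb-y (0.01) least. Donor F8 was the highest for every adult globin at both levels, and r was not taken without it. Among the 14523 other genes tested, whose median was -0.21, the 10 most like Hbb-b1 lay between 0.74 and 0.79, below the 3 other adult globins. They included Rps14 (0.79), of the ribosome, Cox7a2l (0.75), Ndufa3 (0.74) and Ndufs6 (0.74), which encode mitochondrial proteins, Penk (0.76), the precursor of enkephalins, and Gm2000, Gm12254, Gm12999 and 1110001J03Rik. Penk was upregulated in sacral DRG (1.08, adjusted p = 7.55e-06 by limma), and the other 9 were not called (adjusted p 0.142 to 0.979).

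Other red cell genes were described by lists chosen with earlier results known. Of the 13 genes of haem synthesis 12 were tested, and none was called for level or sex. Their median level difference was -0.07, beside -0.05 over all genes. The 5 most abundant were Fech (10.3 RPKM), which inserts iron into protoporphyrin, Tmem14c (9.63), Cpox (7.10), Urod (5.77) and Slc25a37 (5.29), the mitochondrial iron importer. For the red cell membrane, 12 of 24 matched gene identifiers were tested, with Gypc under more than 1 of them. Slc4a1 in sacral females was the only call in the 3 comparisons. Here the most abundant were Add2 (30.0 RPKM), Aqp1 (28.6), Dmtn (7.48), Tmod1 (5.02) and Ank1 (4.08), all of which other cells make too. By comparison Rhag had a mean of 0.107 RPKM and Epb42 0.0391. Of 13 red cell enzymes and chaperones matched, 9 were tested. Prdx2, a peroxidase, was upregulated in lumbar DRG (sacral minus lumbar -0.34 ± 0.10, adjusted p = 0.0489 by limma). Other abundant genes of this list were Cat (89.7 RPKM), Bnip3l (13.7) and Bpgm (5.53), beside 44.5 RPKM of Prdx2.

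Regulators of early red cells varied in level. Gata1 had 15 reads in 5 libraries, Klf1 89 reads in 14, Gfi1b 14 reads in 3 and Nfe2 70 reads in 12, whereas Tal1 (1201 reads, mean 0.456 RPKM) and Myb (647 reads, mean 0.299 RPKM) were read in all 20. Of 15 genes of this list matched, 5 were tested. Bcl11a, a repressor of embryonic and fetal globin genes that is also made in neurons, was upregulated in sacral DRG (0.47 ± 0.12, adjusted p = 0.0276 by limma, 10 of 10 donors), and its level was 1.65 RPKM. The 5 most abundant were Kit (18.7 RPKM), Tfrc (7.44), Lmo2 (2.43), Bcl11a and E2f2 (1.37), which other cells make too. Of the globin family outside red cells, Cygb, made in fibroblast-like cells, stood at 2.08 RPKM with a level difference of -0.02 ± 0.13, and Ngb, the neuronal globin, at 0.356 RPKM.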

How the data were processed

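Whole DRG of 10 embryos were profiled at 2 levels. The authors amplified cDNA (NuGEN Ovation), sequenced Nextera XT libraries, aligned reads with Subread to mm9, keeping unique matches, counted them with featureCounts (Ensembl 67), scaled them by TMM (edgeR 3.12.1) and deposited log2 RPKM from voom (limma 3.26.9). Read length and strand use are not given in the sources used here. Depth differed from 19606265 to 39678967 reads per library. The deposited values have the same median log2 RPKM in every library (0.930), a scaling that the study's methods do not name. Reads were recovered from the RPKM steps, and 98.18 to 98.36% of values were whole within 0.05 reads. Blanks were set to 0.5 reads for tests. Intervals and limits cover counting error only.

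Genes whose mean of log2 RPKM (blanks filled) corresponded to at least 1 RPKM in at least 1 group entered limma 3.58.1 (R 4.3.3, statmod 1.5.0), fitted to the 4 group means with donor as a block (estimated correlation 0.342) and a mean-variance trend. Because both ganglia of a donor come from the same embryo, libraries are paired by donor code. Group means are of 5 embryos each. The fit was tested on simulated data. Hba-x, below the filter, was compared by an exact sign-flip permutation test over donors. The text names all 8 genes, the 10 genes most like Hbb-b1, and, from each list, called genes and the 5 most abundant of the red cell lists; others were named after their values were seen. Some genes that this rule names are not reported here. Members and lists were chosen with earlier results of these data known. Alternatives were other blocks, filters, pseudocounts, scalings, weights, a mitochondrial rRNA covariate and leaving out donors; those leaving out M5 and F7 together, and those of the alpha to beta ratio and unshared windows, were chosen after seeing the data. Of the list genes, 6 symbols were not matched. Gene models of the build mm9 gave coordinates and coding sequences.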

Additional observations from a re-analysis of the deposited data

Results flagged for a closer look

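Of 40 groups of 5 values, 3 held a library that stood apart from the other 4 (gap to the nearest over the range above Dixon's critical value), where chance flags about 1 in 20 groups. The lumbar library of F8 was the highest for Hbb-b2 (log2 RPKM 6.79) and for Slc4a1 (0.65) among lumbar females. The sacral library of M3 had the lowest summed alpha to beta log2 ratio among sacral males, -1.49.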

How the results depend on the processing

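No gene of the set was called for level, except with array quality weights (2 genes). The Slc4a1 call between sacral sexes gave 1 called gene, and 0 with a 5 RPKM filter (Slc4a1 not tested), 0 rescaled, 0 without M5 and F7, and 0 to 1 as donors were left out. Over all genes, level calls numbered 978, and 2998 with array weights, 509 with no filter, 154 with no replicate block, 261 without M5 and F7 and 400 to 1594 as donors were left out. The replicate block otherwise changed no call of the set. Lumbar sex calls numbered 48, and 197 with weights, 180 with the mitochondrial rRNA covariate and 14 to 81 as donors were left out. Sacral sex calls numbered 147, and 751 with weights, 595 with the covariate, 94 with no filter, 69 rescaled, 329 without M5 and F7 and 55 to 443 as donors were left out. The Hbb-b1 correlation between levels rose to r = 0.755 rescaled (permutation p = 0.0153, not adjusted, since the other relations were not rescaled). Without rescaling, r was 0.38 when M8 and F8 were left out.

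The level difference of Hbb-b1 (-0.04) turned to 0.0489 rescaled, 0.162 with weights, 0.0124 without M5, 0.0239 without F3 and 0.0314 without M5 and F7, and was -0.131 to 0.0239 as donors were left out. That of Hbb-b2 (-0.05) turned to 0.0338 rescaled, 0.0849 with weights and 0.0119 without F3, and was -0.149 to 0.0119 as donors were left out. The cause was not tested. Leaving out genes that share reads with a near-identical copy was not run for sums and shares, since no adult globin would remain. Depth limits Hbb-y (11 reads in all) and Hba-x.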

Other observations

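Other blood and tissue lists varied beside the red cell genes. None of these lists held a gene called between the sexes in lumbar DRG by limma, and their part in the red cell results was not tested. Platelet genes (3 of 11 tested), neutrophil genes (2 of 11) and leukocyte genes (3 of 10) held no call between levels or sexes. Summed neutrophil genes ran from 1.5 to 20.5 RPKM in lumbar and from 2.50 to 68.3 RPKM in sacral libraries, and the highest sum was in a male. Of 6 macrophage genes tested, Mrc1, a scavenger receptor, was upregulated in sacral DRG (0.62 ± 0.15, adjusted p = 0.0215 by limma) and C1qc, a complement chain, in sacral females (0.89 ± 0.19, adjusted p = 0.0275). Of 7 endothelial genes tested, Cdh5, a junction cadherin (0.46 ± 0.12, adjusted p = 0.0235), and Tek, the angiopoietin receptor (0.54 ± 0.15, adjusted p = 0.03), were upregulated in sacral DRG. The list did not move as a whole: 3 of the 7 had a higher sacral mean, and the median difference was -0.004. Pecam1, Kdr, Flt1 and Egfl7 had lower means in sacral DRG and were not called. Over all genes tested, 6.73% were called for level.

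Neuronal and glial markers were lower in sacral DRG where called. Of 9 sensory neuron markers, Nefl (-0.90 ± 0.18, adjusted p = 0.00687 by limma) and Snap25 (-0.60 ± 0.14, adjusted p = 0.0162) were called. Of 8 Schwann and satellite glia markers, S100b (-0.67) and Fabp7 (-0.40) were among those called for level, and Cdh19 was lower in sacral females than in sacral males (-0.87 ± 0.21, adjusted p = 0.0477). For haemoglobin and iron clearance 6 gene identifiers were tested, with Trf under more than 1 of them. Fth1, the ferritin heavy chain, was lower in sacral DRG (-0.29 ± 0.08, adjusted p = 0.0425), and Ftl1, the light chain, was higher in sacral females (0.59 ± 0.13, adjusted p = 0.0255). A higher sacral mean was found for 4 of the 6 identifiers, with a median difference of 0.13. Neither of the 2 mitochondrial rRNA genes was called.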
